A study of Mus musculus with 85 samples.

Results

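The miR-17-92 cluster and its paralog miR-106b-25 were followed through 85 small RNA libraries of mouse heart. The members were the 9 guide-strand rows mmu-miR-17-5p, mmu-miR-18a-5p, mmu-miR-19a-3p, mmu-miR-20a-5p, mmu-miR-19b-3p and mmu-miR-92a-3p of miR-17-92, and mmu-miR-106b-5p, mmu-miR-93-5p and mmu-miR-25-3p of miR-106b-25, which are 9 of the 1977 mature miRNAs listed. They were taken by name, as the guide strands of the 2 clusters, with earlier results of these data known. All libraries came from hearts of female mice of inbred strains, 16 weeks old, fed chow for 8 weeks and then, for 8 weeks, a diet high in fat and sucrose. Every library belonged to that single group, with 1 library per heart, so there was no untreated or chow-fed group and no comparison between diets. The strain of each mouse was not used here, so strain and library cannot be told apart.

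The members are made from polycistrons, in which several hairpins are cut from 1 long primary transcript. Each mature miRNA then silences messenger RNAs mainly through its seed, bases 2 to 8 from its 5′ end, so members with the same seed share many targets whichever cluster they come from. The miR-17-92 cluster is driven by Myc, is known as an oncogene of lymphocytes, and is needed for normal heart and lung development. Of the members, miR-92a is known to restrain angiogenesis and miR-25 to target the calcium pump Serca2a in cardiomyocytes.

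The mature sequences, from RefSeq for GRCm38.p6, are shown because the members are grouped by seed and compared by base composition. Bases in capitals are the seed.
mmu-miR-17-5p: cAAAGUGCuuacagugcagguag
mmu-miR-20a-5p: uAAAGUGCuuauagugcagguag
mmu-miR-93-5p: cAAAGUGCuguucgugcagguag
mmu-miR-106b-5p: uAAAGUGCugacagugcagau
mmu-miR-18a-5p: uAAGGUGCaucuagugcagauag
mmu-miR-19a-3p: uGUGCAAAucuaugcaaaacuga
mmu-miR-19b-3p: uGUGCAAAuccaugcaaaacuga
mmu-miR-92a-3p: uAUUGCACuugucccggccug
mmu-miR-25-3p: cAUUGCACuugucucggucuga
Below are 3 close relatives outside the 2 clusters. The first 2 differ from miR-17-5p by only a few bases, and the third carries the seed of miR-92a and miR-25.
mmu-miR-106a-5p: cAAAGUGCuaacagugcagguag
mmu-miR-20b-5p: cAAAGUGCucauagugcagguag
mmu-miR-32-5p: uAUUGCACauuacuaaguugca

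Counted from the 5′ end, miR-19b differs from miR-19a by the single substitution U11C. From miR-17-5p, miR-20a differs by C1U and C12U, and miR-93 by U10G, A11U, C12U and A13C. From miR-92a, miR-25 differs by U1C, C14U and C18U over the 21 bases compared. The GC content of the mature miRNA was 34.8% in miR-19a, 39.1% in both miR-19b and miR-20a, 42.9% in miR-106b, 43.5% in miR-18a, 47.8% in miR-17, 50% in miR-25, 52.2% in miR-93 and 57.1% in miR-92a.

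In GRCm38 the 6 hairpins of miR-17-92 lie on the plus strand at chr14:115043671-115044506, a span of 836 bases inside an exon of the long noncoding RNA gene Mir17hg. The 3 hairpins of miR-106b-25 lie on the minus strand at chr5:138165321-138165818, a span of 498 bases inside Mcm7, which encodes a subunit of the replicative helicase. There, Mir106b overlapped no annotated exon, and Mir93 and Mir25 overlapped an exon of a retained-intron transcript of Mcm7. The third paralog, miR-106a-363, has 6 hairpins on the minus strand at chrX:52741693-52742567. Mature miR-19b-3p and miR-92a-3p are encoded at 2 loci each, on chromosome 14 and on chromosome X, and how reads that match both were counted is not given in the sources used here. The counts of these 2 members, and of pairs that differ by 1 or 2 bases, are therefore uncertain.

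The libraries were shallow, with 1457 to 30202 counts and a median of 12248, and 95 to 213 miRNAs detected in each. In a library of median depth, a count of 0 allows a share of up to 0.0245%, at a floor of 3 counts. The libraries fell into 2 sets that the labels do not give. The first principal component of the 51 miRNAs with enough counts, which held none of the members and carried 75.01% of the variance, parted 58 libraries (set A) from 27 libraries (set B). Set B held libraries 1 to 10, 15 to 18, 20 to 21 and 49 to 59. Median totals were 13260 counts in set A against 10989 in set B. Library 14, the shallowest, scored 1.22 on that component, at the upper end of set A, and the lowest score in set B was 2.24. What separates the sets is not in the labels, and differences between them are given below as descriptions, with no test. No pair of libraries agreed within sampling noise.

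The 9 members together made up 5250 counts, 0.460% of all counts. A library held 7 to 137 of them, with a median of 59. Levels are given as CPM (a count divided by its library's total, on the scale usual for sequencing counts), scaled by the trimmed mean of M values (TMM), which corrects for the few miRNAs that fill most of a library. Because every value is a share of a library, fewer cells of a type and less of the miRNA per cell cannot be told apart. The summed level of the 9 members ranged from 2735 to 8351 CPM, with medians of 4605 in set A against 4197 in set B, and the sets overlapped through most of that range.

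miR-19b was the member with the most counts, 1399 in all, and ranked 50th among the miRNAs. Its count in a library ran from 0 to 50 with a median of 15, and it was detected in 84 of 85 libraries. Its CPM was 578 to 2649 in set A, with a median of 1617, and 0 to 594 in set B, with a median of 209. The sets overlapped only between 578 and 594 CPM, and the lowest values of set A came from libraries 14 and 67.

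miR-25 had 1327 counts and was detected in all 85 libraries, with 2 to 44 counts and a median of 13. Its CPM was 192 to 1752 in set A, with a median of 918, and 892 to 4066 in set B, with a median of 1706. Its levels were higher in set B, the reverse of miR-19b, though the sets overlapped.

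miR-93 had 1209 counts and was also detected in all 85 libraries, with 1 to 48 counts and a median of 12. Its CPM was 148 to 2433 in set A, with a median of 832, and 880 to 2417 in set B, with a median of 1320. The highest library of set A, number 36, reached as high as any in set B.

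miR-20a had 667 counts and was detected in 83 libraries, with a median count of 6. Its CPM reached 1477 in set A against 1163 in set B, with medians of 588 and 356. The sets overlapped over nearly the whole range.

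The other 5 members were sparse. miR-19a had 333 counts in 71 libraries, miR-92a 156 counts in 65, miR-17 96 counts in 57, miR-106b 41 counts in 32 and miR-18a 22 counts in 20. No library held more than 13 counts of miR-19a, 9 of miR-92a, 6 of miR-17, 3 of miR-106b or 2 of miR-18a. At these counts a library without the miRNA cannot be told from one that expresses it at a low level.

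**Figure D1:**
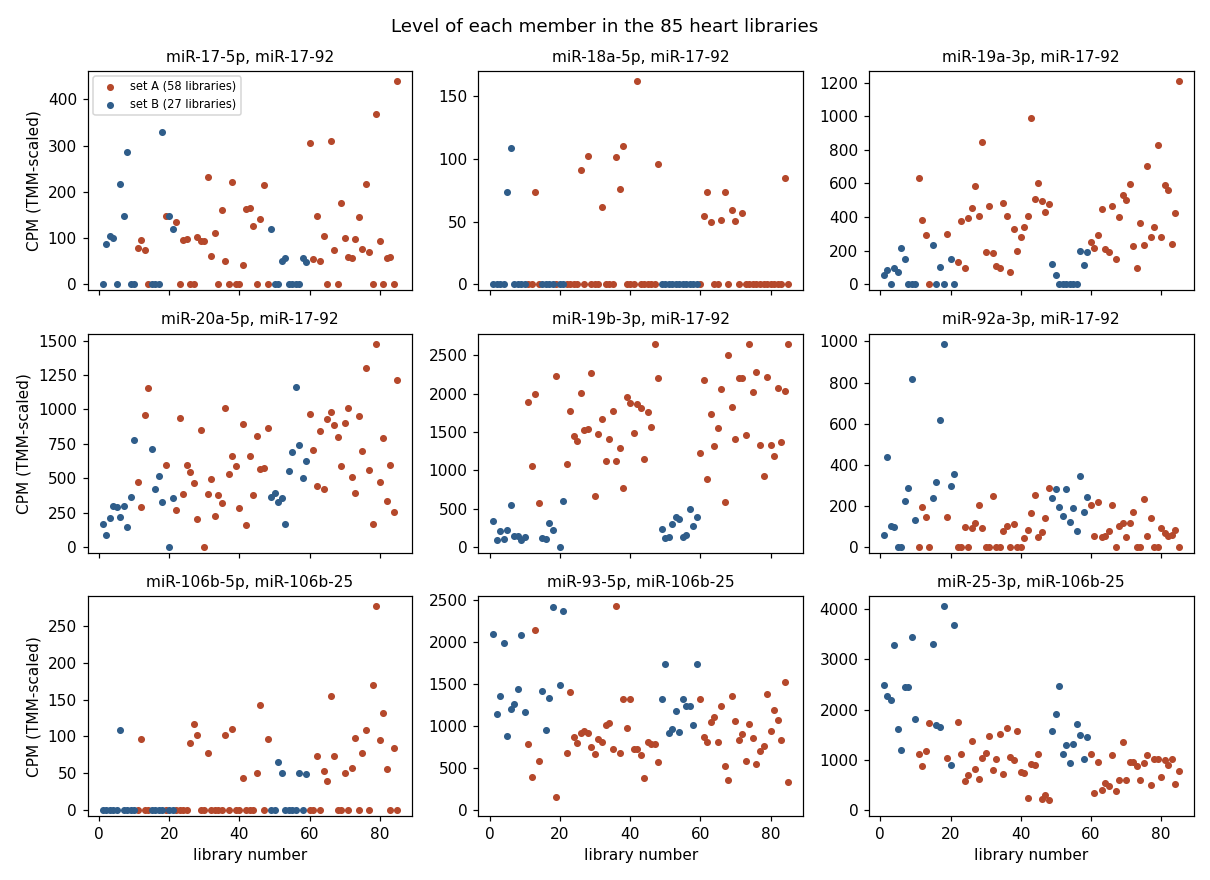
Level of each member in CPM (TMM-scaled, vertical axis, own scale in each panel) against library number (horizontal axis), 1 point per library, red for the 58 libraries of set A and blue for the 27 of set B. miR-19b steps down in the runs of set B, from a median of 1617 to 209 CPM, and miR-25 steps up, from 918 to 1706.

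By median CPM the order over all 85 libraries was miR-19b, miR-25, miR-93, miR-20a, miR-19a, miR-92a, miR-17, miR-106b and miR-18a, with the last 2, whose medians were both 0, placed by their means of 34.7 and 18.9 CPM. Neighbours in that order were compared with a two-sided sign-flip permutation test of the difference in CPM, adjusted over the 8 pairs. miR-19b and miR-25 did not differ beyond their spread, at a mean of 1199 against 1252 CPM (SD of the difference 1425, 85 libraries, adjusted p = 0.734, permutation test). The other 7 neighbours differed. miR-25 exceeded miR-93 by 185 CPM (SD 605, higher in 46 of 85 libraries and lower in 30, adjusted p = 0.0097, permutation test). The smallest of these differences, miR-106b over miR-18a, was 15.7 CPM (SD 57.4, adjusted p = 0.0134, permutation test), with 56 of 85 libraries tied. How efficiently each miRNA is captured was not measured, so the order is one of counts and not of molecules.

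The order was not the same in the 2 sets. In set A, miR-19b exceeded miR-25 in 49 of 58 libraries, by 756 CPM on average (SD 711, adjusted p = 2.67e-05, permutation test). In set B it was below miR-25 in 27 of 27 libraries, with a mean difference of -1792 CPM (SD 923, adjusted p = 2e-05, permutation test). miR-19a stood above miR-92a in 54 of 58 libraries of set A and below it in 22 of 27 libraries of set B. No difference between miR-25 and miR-93 was detected in set A (difference -14.7 CPM, SD 471, adjusted p = 0.814, permutation test). In set B, miR-25 was higher by 613 CPM (SD 645, adjusted p = 9.33e-05, permutation test).

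Grouped by seed, the miR-17 family (miR-17, miR-20a, miR-93, miR-106b) held 38.3% of the members' counts (95% Wilson interval 37.04 to 39.7). The miR-19 family held 32.99% (31.7 to 34.3), the miR-92 family of miR-92a and miR-25 held 28.2% (27.05 to 29.5), and miR-18a held 0.419% (0.277 to 0.634). These intervals are of pooled counts, so they cover counting error only and not the spread between libraries. It is also not known whether molecular identifiers were used. The miR-17 family held 36.4% in set A against 43.1% in set B, and miR-18a 0.535% against 0.133%. The miR-19 family held 43.3% of set A but 7.36% of set B, and the miR-92 family 19.7% of set A but 49.4% of set B. By library, the miR-19 share ran from 14.3% to 61.1% in set A and from 1.33% to 20% in set B. The miR-92 share ran from 7.14% to 43.3% in set A and from 31.4% to 65.1% in set B. In set A the leading family was miR-19 in 40 libraries, miR-17 in 16 and miR-92 in 2. In set B it was miR-92 in 16 libraries and miR-17 in 11, and miR-19 led in 0. A tie was counted for the family that comes first in the order miR-17, miR-19, miR-92. Ties were between miR-17 and miR-92 in libraries 14 (set A), 10 and 49 (set B). In set A, miR-17 and miR-19 tied in library 80, and miR-19 and miR-92 in library 34.

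**Figure D2:**
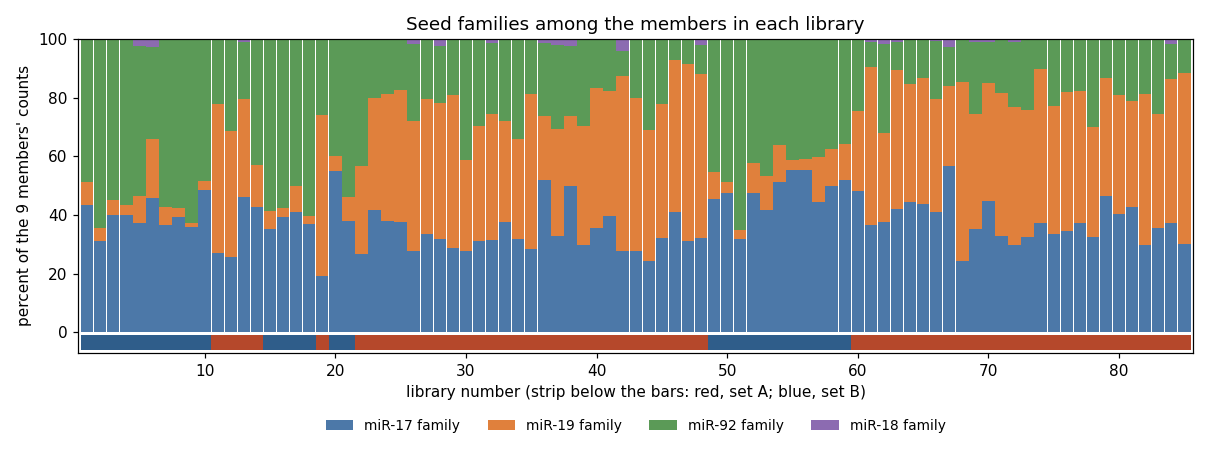
Percent of the 9 members' counts (vertical axis, bars stacked from 0 to 100) held by each seed family in each library, in the order of library number. The strip under the bars marks the set, and the miR-19 share drops from 43.3% of the pooled counts in set A to 7.36% in set B.

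By cluster, miR-17-92 held 50.9% of the members' counts (49.6 to 52.3) and miR-106b-25 the other 49.1%. The even split was an average of unlike sets. miR-17-92 held 61.6% in set A against 24.3% in set B. It held most of the members' counts in 50 of 58 libraries of set A and in 0 of 27 libraries of set B. By library its share was 34.5% to 83.3% in set A against 11.7% to 39.1% in set B.

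Within miR-17-92 the make-up differed between the sets, and 2 of its members, miR-19b and miR-92a, are also encoded on chromosome X. miR-19b was 56.9% of the cluster's counts in set A against 23.7% in set B. miR-92a went from 2.99% to 23.7%, miR-20a from 22.5% to 40.3%, and miR-19a from 13.4% to 6.54%. Within miR-106b-25, miR-25 was 46.6% in set A against 57.7% in set B, miR-93 was 50.9% and 41.9%, and miR-106b was 2.51% and 0.438%.

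Within 2 of the seed families, taken over the 9 members alone, the make-up differed little. The relative miR-32-5p, with the seed of miR-25 and miR-92a, was left out, at 152 counts in set A against 8 in set B. miR-19b was 80.9% of the miR-19 family in set A (78.95 to 82.8) and 78.4% in set B (69.8 to 85.0). miR-25 was 90.6% of the miR-92 family in set A (88.3 to 92.5) and 88.3% in set B (85.8 to 90.4), although miR-25 and miR-92a come from different clusters. The chi-square per degree of freedom of the counts over all 85 libraries, which is near 1 where libraries differ by counting error alone, was 0.941 for the miR-19 family and 1.13 for the miR-92 family. It was 2.19 for the members of miR-17-92, 1.40 for those of miR-106b-25 and 2.51 for all 9 members. Within a set, the members of miR-17-92 gave 1.04 in set A against 1.41 in set B. The miR-17 family was the exception: miR-93 was 53.6% of it in set A against 73.5% in set B, miR-20a was 38.1% and 22.8%, and the chi-square per degree of freedom was 1.48.

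Set B was set against set A in pooled CPM, with exact 95% intervals for counting error. miR-19b was 6.66-fold higher in set A (5.36 to 8.38, 1312 counts against 87). miR-19a was 5.69-fold higher in set A (3.75 to 9.02), miR-18a 4.42-fold (1.07 to 38.99, from 20 counts against 2) and miR-106b 3.18-fold (1.24 to 10.4). miR-17 and miR-20a were 1.79-fold and 1.55-fold higher in set A. miR-92a was 2.85-fold higher in set B (2.06 to 3.97), miR-25 2.23-fold (2.002 to 2.49) and miR-93 1.48-fold (1.32 to 1.66). So 4 of 9 members were at least 2-fold lower in set B and 2 of 9 at least 2-fold higher. Of the 226 miRNAs with at least 20 counts, 16.8% were that much lower and 23% that much higher, and the median over them was higher in set B by 0.34 on the log2 scale (0.09 to 0.59 under the other scalings). All 9 directions were the same under the 4 scalings tried. With TMM over all miRNAs, 5 were at least 2-fold lower and 1 higher, since miR-17 then passed 2-fold and miR-25, at 1.89-fold, did not. On the log2 scale miR-93 was higher in set B by 0.57, beside that median of 0.34, and by 0.82 without TMM or 0.32 with TMM over all miRNAs.

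The 6 members with the lowest GC content were the 6 that were lower in set B, and the 3 with 50% or more were the 3 that were higher. Across the 9 members, Pearson's r of GC content with the log2 ratio was 0.867 and Spearman's rho 0.812. Across the other 181 miRNAs with at least 20 counts and a matching sequence, r was 0.442 and rho 0.458. These are across miRNAs that share the same libraries, and some members differ by only 1 or 2 bases, so they are descriptions. Among the relatives, mmu-miR-32-5p, which has the seed of miR-25 and miR-92a but a GC content of 31.8%, had 152 counts in set A against 8 in set B, an 8.40-fold higher level in set A (4.15 to 19.8). Its difference between the sets had the direction of the miR-19 family. The part of seed or GC content in these differences was not tested.

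**Figure D3:**
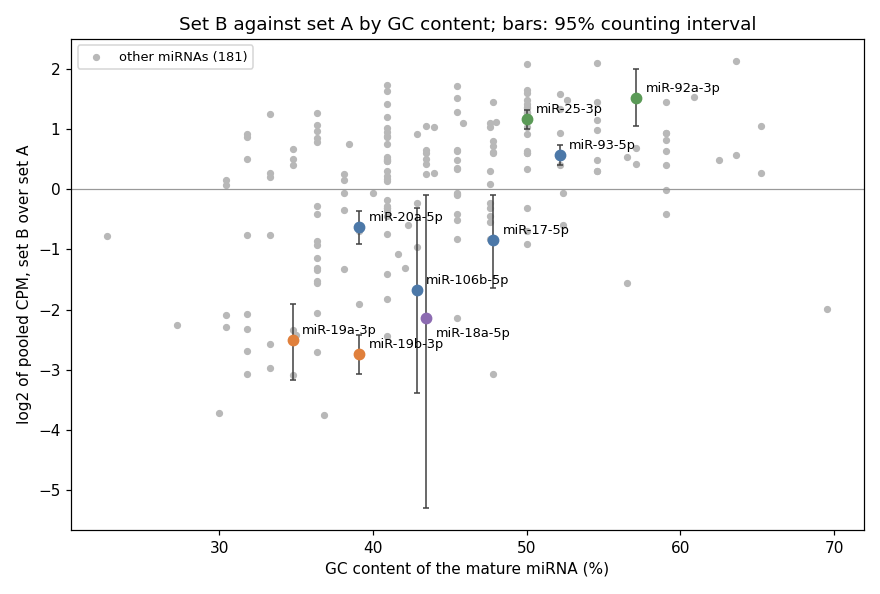
Log2 of the pooled CPM in set B over that in set A (vertical axis) against the GC content of the mature miRNA in percent (horizontal axis), with the 9 members in the colours of their seed families, bars for 95% counting intervals, and grey points for the 181 other miRNAs. The members run upward from miR-19a, at 34.8% GC, to miR-92a, at 57.1% GC, and r is 0.442 over the grey points against 0.867 over the members.

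Levels of cell type miRNAs differed between the sets as well, and their part in the members' differences was not tested. The summed level of the 6 leukocyte miRNAs, all of them detected, was 7516 to 51154 CPM in set A against 4499 to 10515 in set B, but its members parted. In pooled CPM, miR-142a-3p was 17996 in set A against 2128 in set B, and miR-142a-5p 1112 and 188. The others were higher in set B: miR-223-3p was 752 and 1514, miR-150-5p 324 and 1291, miR-146a-5p 1022 and 1477, and miR-155-5p 324 and 513. Of the 3 erythroid miRNAs, miR-451a was 3136 and 1726 CPM and miR-144-3p 532 and 40.5, while miR-486a-5p was 929 and 1726. Of the 4 cardiomyocyte miRNAs, miR-208a-3p was 9439 and 1451 CPM, miR-1a-3p 205927 and 119699, and miR-499-5p 5836 and 3431. Only miR-133a-3p, at 30862 and 66366, was higher in set B. All 4 were detected in 85 of 85 libraries, so the heart label held, and their summed level was 187318 to 393488 CPM in set A against 145130 to 228249 in set B. Of the fibroblast miRNAs, miR-199a-3p was 7626 and 10560 CPM, and miR-214-3p was near absent, with 6 counts in all. The summed erythroid level was 1334 to 12235 CPM in set A against 1486 to 9779 in set B. The endothelial pair summed to 53187 to 88273 CPM in set A against 35052 to 60828 in set B. The smooth muscle pair summed to 30512 to 57647 CPM (set A) and 28540 to 49205 (set B), and the fibroblast pair to 5338 to 13480 and 7910 to 15677. The smooth muscle pair parted in pooled CPM, with miR-143-3p at 40773 in set A against 31894 in set B, but miR-145a-5p at 1753 and 4679. The liver miRNA miR-122-5p was 221 and 654 in pooled CPM, and 0 of the 20 cell type miRNAs were without a count.

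For 7 of the 9 members the other arm had 7 counts or fewer. Of the counts from the miR-93 hairpin 99.4% were on the 5p arm, and of those from the miR-19b hairpins 99.9% were on the 3p arm. For miR-19a, miR-20a and miR-25, 0 counts came from the other arm, so that the arm held at most 1.14%, 0.573% and 0.289% (95% Wilson limits). miR-17-3p had 18 counts beside the 96 of miR-17-5p, 15.8% of that hairpin (10.2 to 23.6), and miR-106b-3p had 13 beside the 41 of miR-106b-5p, 24.1% (14.6 to 36.95). The 2 arms of miR-106b stood the other way round in the sets, with 5 counts of 3p against 36 of 5p in set A, but 8 of 3p against 5 of 5p in set B.

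The third paralog was hardly seen. The 4 guide miRNAs of miR-106a-363 that are not shared with miR-17-92, namely miR-106a-5p, miR-18b-5p, miR-20b-5p and miR-363-3p, had 9 counts together, of which 6 were miR-20b. miR-106a-5p, which differs from miR-17-5p by U10A alone, had 1 count in 85 libraries. The chromosome 14 hairpins of miR-17, miR-18a, miR-19a and miR-20a, which share no mature sequence with chromosome X, gave 96, 22, 333 and 667 counts.

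Co-variation of cluster partners was measured within each set, on log2 CPM with a prior count of 2, for the 36 pairs in each of 2 sets. The component that parted the sets still ran from -4.86 to 1.22 within set A and from 2.24 to 9.66 within set B. Whether these correlations, or those of the cluster sums below, follow it was not tested. Only 2 of the 72 correlations passed an adjusted p of 0.05, while 12 had an unadjusted p under it. For pairs among the 51 miRNAs with enough counts, 26.5% of 2550 passed. In set A the chi-square per degree of freedom against library totals was 2.41 for miR-93, 2.24 for miR-25, 2.15 for miR-19b, 1.84 for miR-20a, 1.49 for miR-19a, 1.2 for miR-17, 0.93 for miR-92a, 0.87 for miR-106b and 0.84 for miR-18a, against a median of 1.30 over the 226 miRNAs. In set B it was 4.599 for miR-25, 2.04 for miR-92a, 1.91 for miR-20a, 1.79 for miR-93 and 1.45 for miR-17, and from 0.65 to 1.19 for the other 4, against a median of 1.35. So the spread of miR-106b and miR-18a was near counting error in both sets, and that of miR-92a in set A alone.

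miR-19a and miR-19b, neighbours in cluster and seed, were correlated in set A (r = 0.51, adjusted p = 0.00288; rho = 0.465, adjusted p = 0.0245; permutation tests, 58 libraries). Without libraries 14 and 85, the farthest from the median of miR-19a, r was 0.400 and the adjusted p 0.067, so the call rests on those libraries. In set B, where the 2 had 24 and 87 counts, r was 0.0985 (adjusted p = 0.839, permutation test).

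miR-93 and miR-25, partners in miR-106b-25, were correlated in set B (r = 0.638, adjusted p = 0.0108, permutation test, 27 libraries). Spearman's rho was 0.534 (adjusted p = 0.0808, permutation test), and without libraries 18 and 21 r was 0.496 (adjusted p = 0.166, permutation test), so this call rests on those libraries too. In set A r was 0.167 (adjusted p = 0.526, permutation test, 58 libraries), at 731 and 668 counts. miR-106b gave r between -0.255 and 0.196 with either partner in either set, and no test passed. The pair with the next highest r over the sets, miR-18a with miR-106b, rested on 2 and 5 counts in set B and passed in neither set (adjusted p = 0.526 and 0.289, permutation tests). By rank, 1 further pair passed in set B: miR-17 and miR-20a were negatively related (rho = -0.616, adjusted p = 0.0302, permutation test, 19 counts of miR-17), a pair looked at after its value was seen. By r it did not pass (r = -0.546, adjusted p = 0.067, permutation test).

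**Figure D4:**
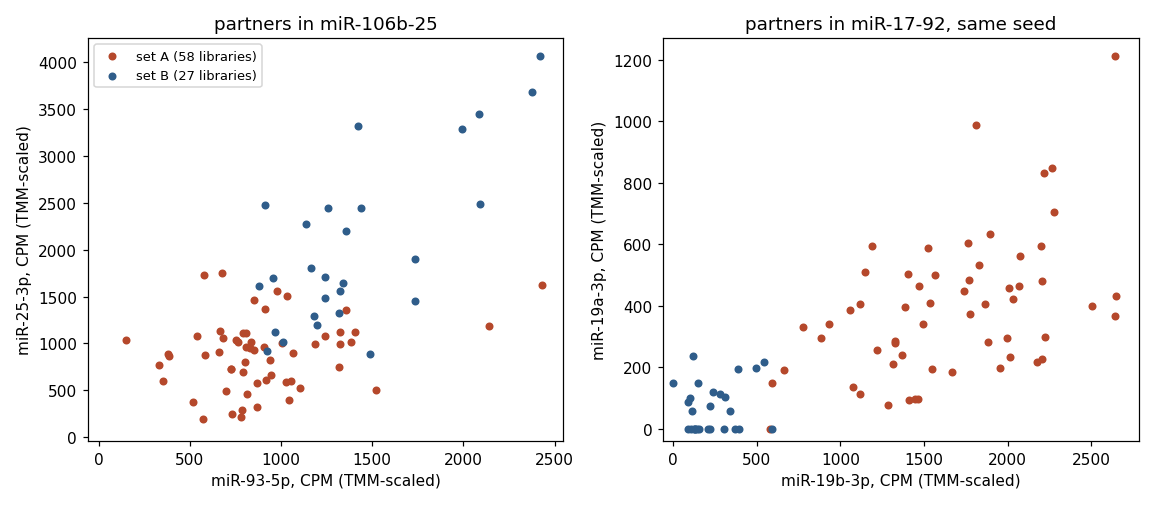
Level in CPM (TMM-scaled) of miR-25 against miR-93 (left) and of miR-19a against miR-19b (right), 1 point per library, red for set A and blue for set B. On the left the relation is seen in set B (r = 0.638) more than in set A (r = 0.167), and on the right in set A (r = 0.51), with set B close to the origin.

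In set A the median r was 0.1297 over the 15 pairs that shared a cluster but not a seed, 0.196 over the 3 that shared both, 0.0813 over the 5 that shared a seed but not a cluster, and 0.00545 over the 13 that shared neither. In set B the medians were 0.0442, -0.237, 0.0758 and 0.0158 in that order. The pairs overlap in their members, so these medians are a description. The summed members of the 2 clusters were not seen to vary together, with r = -0.10 in set A (adjusted p = 0.453, permutation test, 58 libraries) and 0.173 in set B (adjusted p = 0.453, permutation test, 27 libraries).

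**Figure D5:**
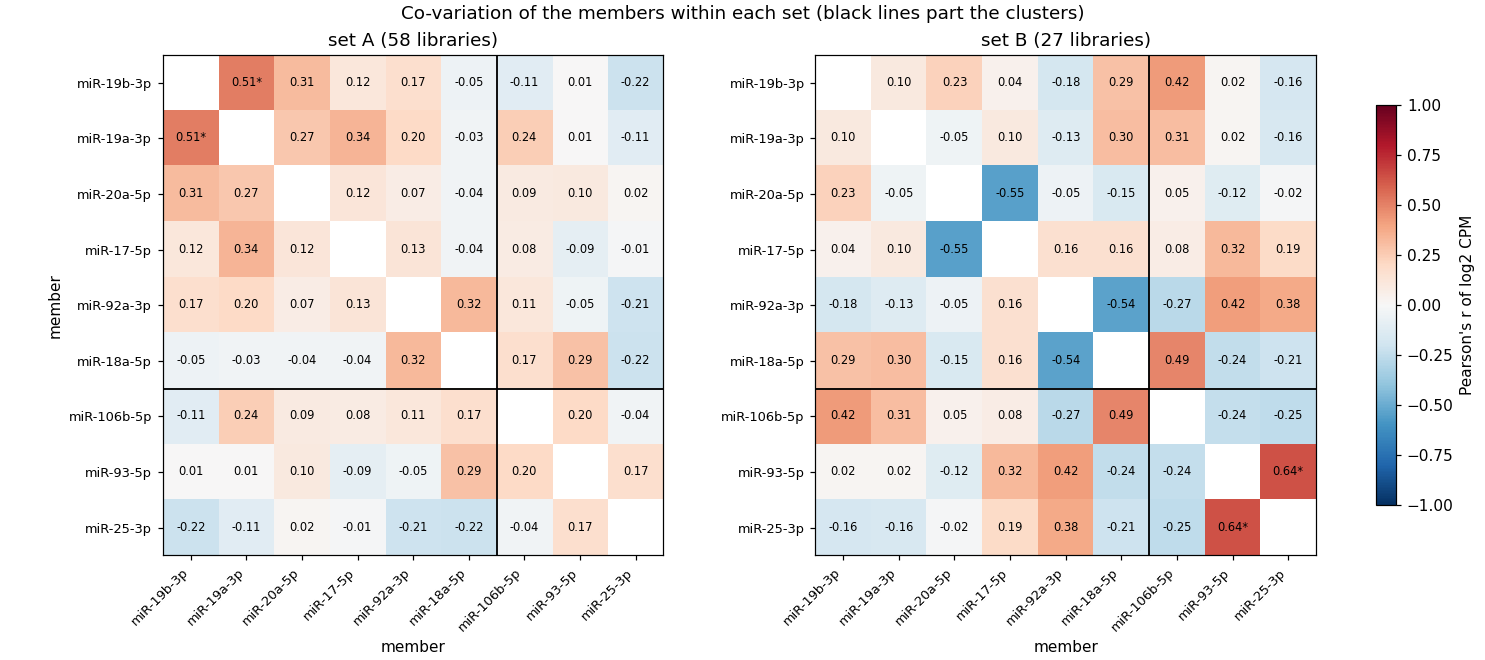
Pearson's r of log2 CPM for every pair of members, in set A (left, 58 libraries) and set B (right, 27 libraries). Black lines part miR-17-92 from miR-106b-25, and a star marks the 2 pairs with an adjusted p under 0.05, which are miR-19a with miR-19b (set A) and miR-93 with miR-25 (set B).

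The miRNAs whose level was most like that of each cluster were named by the mean of r over the sets, among the 51 with enough counts. For the summed miR-17-92 members they were mmu-miR-451a (r = 0.298 in set A against 0.581 in set B), a miRNA of red blood cells, mmu-miR-142a-3p (0.440 and 0.271), a miRNA of white blood cells, and mmu-miR-29b-3p (0.345 and 0.174). Of these 6 correlations, miR-451a in set B (adjusted p = 0.0193, permutation test, 27 libraries) and miR-142a-3p in set A (adjusted p = 0.0113, permutation test, 58 libraries) passed. For the summed miR-106b-25 members they were mmu-miR-16-5p (0.628 and 0.552), mmu-let-7i-5p (0.530 and 0.578) and mmu-miR-125a-5p (0.373 and 0.599). All 6 of these passed (adjusted p from 0.00102 to 0.0325, permutation tests), and r stayed between 0.336 and 0.523 without the 2 farthest libraries. Of the 204 correlations behind these lists 14.2% passed, and the median r over the 51 miRNAs was 0.0206 and 0.0593 for miR-17-92 and 0.0244 and -0.0341 for miR-106b-25, in sets A and B.

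Against the 12 cell type miRNAs with enough counts, 8 of 48 relations passed an adjusted p of 0.05, and 6 did by rank. For the cluster sums with all miRNAs that had enough counts, cell type miRNAs included, 29 of 204 correlations (14.2%) passed. Passing was therefore not particular to cell type miRNAs. The miR-106b-25 sum was lower where cardiomyocyte miR-208a-3p was higher, in set A (r = -0.554, adjusted p = 0.00048, permutation test, 58 libraries) and in set B (r = -0.552, adjusted p = 0.0167, permutation test, 27 libraries). It was likewise lower where miR-499-5p was higher in set A (r = -0.411, against -0.305 in set B, which did not pass) and where miR-1a-3p was higher in set B (r = -0.609, against -0.148 in set A, which did not pass). The fourth cardiomyocyte miRNA, miR-133a-3p, had r of the other sign, at 0.0348 for set A against 0.384 for set B, and passed in neither (adjusted p = 0.952 and 0.131, permutation tests). In set A the miR-106b-25 sum was higher with miR-451a (r = 0.438), a call that was lost by rank (rho = 0.331, adjusted p = 0.0667, permutation test), and in set B r with miR-451a was 0.124. In set A it was lower with endothelial miR-126a-5p (r = -0.420), and that relation lost its call by rank (rho = -0.300), without TMM (r = -0.253), with TMM over all miRNAs (r = -0.313) and without the 2 farthest libraries (r = -0.232). In set B the call for miR-208a-3p was lost with TMM over all miRNAs (r = -0.423, adjusted p = 0.126, permutation test). For miR-1a-3p in set B, r was -0.290 with TMM over all miRNAs (adjusted p = 0.336, permutation test), rho was -0.427 (adjusted p = 0.100, permutation test), and r without the 2 farthest libraries was -0.416 (adjusted p = 0.122, permutation test). The miR-17-92 sum passed with leukocyte miR-142a-3p in set A (r = 0.440) and erythroid miR-451a in set B (r = 0.581). By rank it also passed with cardiomyocyte miR-208a-3p in set A (rho = 0.368, adjusted p = 0.0482, permutation test). There r was 0.329 (adjusted p = 0.0563, permutation test), and in set B r was 0.0593. In set A the other cardiomyocyte miRNAs, miR-499-5p (r = 0.282), miR-1a-3p (-0.0131) and miR-133a-3p (-0.204), did not pass. With miR-146a-5p, the other leukocyte miRNA tested, the miR-17-92 sum gave 0.0176 for set A against -0.389 for set B, and neither passed (adjusted p = 0.952 and 0.131, permutation tests). All these levels share the total of a library, of which miR-1a-3p alone took 17.7% of the counts.

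Of the members, 0 of 9 passed the filter on low counts, so their trend with library number comes from the same edgeR quasi-likelihood fit over all 548 miRNAs with a count, where 19% were called at an adjusted p of 0.05. Of the 9 members 7 were called. Among the 51 miRNAs that passed the filter, fitted alone, 43 were called, so a trend was not particular to the members. Per 10 libraries, 4 rose: miR-106b by 0.25 on the log2 scale (adjusted p = 0.0148), miR-19b by 0.18 (0.00143), miR-19a by 0.16 (0.0174) and miR-20a by 0.14 (0.000634). miR-25 fell by 0.19 (4.33e-07), miR-92a fell by 0.16 (0.0422) and miR-93 fell by 0.07 (0.0401). miR-17 (0.05, adjusted p = 0.711) and miR-18a (-0.03, adjusted p = 0.881) did not pass. Under the scaling first used, TMM over all miRNAs, 99 miRNAs and 5 of 9 members were called, and miR-92a (-0.13, adjusted p = 0.121) and miR-93 (-0.04, adjusted p = 0.304) were not. Library number and set go together, since set B filled most of the first 21 numbers. With the set in the fit, 6.02% of the 548 miRNAs were called and 2 of the 9 members: miR-20a still rose, by 0.12 (adjusted p = 0.0202), and miR-25 still fell by 0.10 (adjusted p = 0.00658). The other 5 lost their call, miR-19b at 0.05 (adjusted p = 0.383), miR-106b at 0.19 (0.176), miR-19a at 0.04 (0.668), miR-92a at -0.03 (0.802) and miR-93 at -0.03 (0.608). Of the 51 miRNAs fitted alone, 29 were called with the set in the fit.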

How the data were processed

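The authors extracted total RNA from the hearts with a miRNeasy kit, made QIAseq miRNA libraries, mapped reads with HISAT2 2.0.6 to mm10 and counted them with HTSeq 0.13.5, per the submitters' processing notes. The deposited values are raw counts per mature miRNA, and all 85 columns matched a library. The miRNA annotation, trimming, strand setting, handling of multiply mapped reads and use of molecular identifiers are not given in the sources used here.

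Members, lists and the division into sets were chosen with earlier results of these data known. Counts were handled in R 4.3.3 with edgeR 4.0.16. The filter filterByExpr, with at least 10 counts at median depth asked of 63 libraries and 15 in total, kept 51 of 548 miRNAs and 0 of the 9 members. Their TMM factors were therefore used for all rows, and the members' trend was taken from the fit without the filter, with the same factors. This scaling was chosen after the results under 2 others had been seen: TMM factors of the 51 miRNAs multiplied by whole totals, with TMM over all miRNAs in the members' trend, and TMM computed against whole totals. It was preferred because it uses the factors of the filtered fit and because TMM over all the sparse rows made more false calls in simulated trends, and both others are kept as alternatives. The simulated libraries were not divided into 2 sets, so the simulation cannot show which scaling is right for these data. The sets are 2-means on the first principal component of the 51 miRNAs. Trends were fitted with glmQLFit and glmQLFTest against library number in steps of 10. Correlations used 100000 permutations (two-sided, smallest p 1e-05) in Python 3.11.15 with numpy 2.4.6, scipy 1.17.1 and pandas 2.3.3, and p-values were adjusted by the Benjamini-Hochberg method over the 72 pairs of members, the 48 cell type relations or the 204 relations of the cluster sums. The libraries are separate hearts, and the p-values rest on differences between them, with the hearts taken as independent. Strain, and the component that still varied within each set, were not modelled. Plots used matplotlib 3.10.9. Both procedures were tested on simulated data.

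Named miRNAs were the members, their relatives, the cell type miRNAs, the 3 most like each cluster sum, and, for co-variation, the pairs within miR-106b-25 and the 3 pairs with the highest r over the sets. Pairs of miR-92a with expressed members were to be named too, but no member passed the filter. Alternatives were DESeq2 1.42.0 size factors and its Wald test, no filter, unscaled CPM, the 84 libraries of 3062 counts or more, a prior count of 0.5, Spearman's rho, partial correlation, leaving out 2 libraries, and the set as a covariate. The last without the filter, the scalings of the set ratios and the 2 earlier scalings were added after seeing the data. Mature sequences and loci came from RefSeq for GRCm38.p6, exons from GENCODE M21.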

Additional observations from a re-analysis of the deposited data

How the results depend on the processing

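Over the alternatives, calls were judged by whether they lay within 1.5 times of the number given, whatever the number tested. So 33 of 548 in the trend with the set and no filter counted as near 43 of 51. Shares were judged by the spread over all 85 libraries, which holds the difference between the sets. So set A, with 43.3% in the miR-19 family against 32.99%, counted as within it. By these loose measures the main counts and shares held in 44 of 50 cases. The 6 others were set B taken alone, where the miR-19 family held 7.36%, the miR-92 family 49.4% and miR-17-92 24.3% of the members' counts, and the trend without the filter, which called 104 miRNAs (40 up, 64 down) against 43 of 51 with it (22 up, 21 down; 15 up and 29 down without TMM). In that trend the 2 earlier scalings, chosen as alternatives after seeing the data, called 99 (50 up, 49 down, 5 of 9 members) with TMM from all miRNAs and 103 (37 up, 66 down, 7 of 9 members) with TMM against whole totals. Under them 2 pairs of members were called each time, as given, and 8 and 10 cell type relations against 8, though miR-451a with the miR-17-92 sum in set B was not called with TMM against whole totals (r = 0.477, adjusted p = 0.0558, permutation test). Among single miRNAs and pairs 283 results kept their sign and call, or stayed within the spread between libraries, though values could move. For miR-106b with miR-93 in set B, not called in either case, r went from -0.237 to -0.109 without the 2 farthest libraries. The order of neighbours turned within a set: miR-19b minus miR-25 was 756 CPM in set A, miR-25 minus miR-93 was -14.7 and miR-92a minus miR-17 was -14.5 in set A, and miR-19a minus miR-92a was -200.4 in set B. Given log2 total and library number, r of miR-106b with miR-25 in set A became 0.0568, and with the set as a covariate the trend of miR-17 became -0.0067. A further 22 lost their call. Those of the pairs, the cell type relations and the trend stand beside the results or here, and the other was miR-106b over miR-18a in set B (5.20 CPM, adjusted p = 0.374, permutation test). For miR-208a-3p with the miR-106b-25 sum in set B, r was -0.423 with TMM over all miRNAs (adjusted p = 0.126, permutation test) and -0.359 given total and library number (adjusted p = 0.184, permutation test). The cause was not tested. A prior count of 0.5 moved the median log2 CPM of the 4 sparsest members (miR-17, miR-18a, miR-92a, miR-106b) to between 5.24 and 7.11. For miR-18a with miR-106b in set B, r without 2 libraries could not be had, since no count of miR-18a was left. No paired analysis was possible because all libraries belong to 1 group. Depth limits the sparse members most.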
